A study of Mus musculus with 2 samples.

Results

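Peaks of the histone methyltransferase EHMT2 (G9a) were examined around the genes of zinc-finger proteins (ZFPs). A peak was counted when its summit lay within 50 kb of a protein-coding gene named Zfp, Zscan or Zkscan followed by a number, or inside such a gene (GENCODE vM21, mm10). The Zscan4 genes were left out. Of 12556 peaks in the deposited list, 165 met this rule. A gene was called clustered when another such gene lay within 100 kb, and single otherwise. The list held 416 genes, of which 241 were clustered and 175 single. The clustered genes formed 55 merged intervals of 14.2 Mb with 64 peaks, and the single genes covered 26.1 Mb with 101 peaks. The remaining 12389 peaks on chromosomes 1 to 19, X and Y lay elsewhere.

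EHMT2 binding was measured by ChIP-exo, in which an exonuclease trims immunoprecipitated DNA towards the crosslinked protein. The cells were KH2 mouse embryonic stem cells (mESCs, BL6/129 hybrid) with a homozygous EHMT2-dTAG allele, which adds a degron, 2 HA tags and an mCherry reporter at the STOP codon of endogenous Ehmt2. All cells were treated with DMSO for 24 h on feeders in FBS/LIF, and EHMT2 was precipitated with an antibody against HA. Both replicates were merged by the authors before peak calling, so 1 pooled list stood for the only group, and no control antibody or EHMT2-depleted library was analysed here. The list is of peaks only, so the label of the cells could not be checked against marker genes.

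C2H2 zinc-finger proteins bind DNA through arrays of fingers, short folds in which cysteines and histidines hold a zinc ion. Many carry a KRAB domain, through which they recruit TRIM28 (KAP1) and, with it, the H3K9 methyltransferase SETDB1 to transposable elements. Their genes arose by repeated tandem duplication and stand in dense clusters, in which chromatin with H3K9 methylation is well known. EHMT2, with its partner EHMT1, deposits the repressive mark H3K9me2 and has no sequence-specific DNA-binding domain of its own.

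The 4 strongest peaks by −log10 q, ranked over both classes, are shown to let their sequences be compared. Each window is 151 bp centred on the summit and is written 5′ to 3′ in the orientation of the first, with the central 50 bp in capitals. The first lay near Zfp951 (chr5:104893987-104894137, plus strand) and the third near Zfp618 (chr4:62931458-62931608, plus strand), both single genes. The second lay near Zfp955b (chr17:33279084-33279234, minus strand) and the fourth in an intron of Zfp52 (chr17:21550724-21550874, plus strand), both clustered genes. All coordinates are GRCm38 (mm10).
Zfp951: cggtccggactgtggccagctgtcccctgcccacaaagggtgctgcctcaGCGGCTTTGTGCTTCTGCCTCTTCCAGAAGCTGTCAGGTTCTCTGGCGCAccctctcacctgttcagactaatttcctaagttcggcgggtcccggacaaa
Zfp955b: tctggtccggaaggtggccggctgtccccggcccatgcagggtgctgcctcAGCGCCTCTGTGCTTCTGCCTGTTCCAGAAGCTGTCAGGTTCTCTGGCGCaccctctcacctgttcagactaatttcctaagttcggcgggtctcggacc
Zfp618: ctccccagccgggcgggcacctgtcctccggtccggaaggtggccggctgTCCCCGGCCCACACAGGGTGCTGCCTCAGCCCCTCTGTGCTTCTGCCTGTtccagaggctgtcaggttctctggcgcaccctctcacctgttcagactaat
Zfp52: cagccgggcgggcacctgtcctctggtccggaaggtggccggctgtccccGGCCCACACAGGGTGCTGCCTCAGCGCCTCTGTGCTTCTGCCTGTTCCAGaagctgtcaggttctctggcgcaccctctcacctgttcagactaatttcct
These windows were near copies of each other: the best match to the Zfp951 window was 91.4% identical for Zfp955b, 91.4% for Zfp618 and 93.4% for Zfp52. The fifth strongest peak, downstream of Zfp804b, matched it at 94.0%. The 5 strongest peaks around ZFP genes thus shared 1 sequence, and 2 of them lay in clustered and 3 in single intervals. After the Zfp994 peak, the next strongest peaks of clustered genes were near Zscan18 (9.29-fold, 21 fragments) and Zscan12 (8.28-fold, 18 fragments), whose 50-mers had 1153 and 2 copies.

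Windows of 3 promoter summits are shown because their central 50 bp occur once in the assembly, so reads there have a single site. They are the 3 strongest such windows without an annotated untranslated region, given on the plus strand: Zfp11 (chr5:129670238-129670388), Zfp362 (chr4:128795900-128796050) and Zfp639 (chr3:32508943-32509093).
Zfp11: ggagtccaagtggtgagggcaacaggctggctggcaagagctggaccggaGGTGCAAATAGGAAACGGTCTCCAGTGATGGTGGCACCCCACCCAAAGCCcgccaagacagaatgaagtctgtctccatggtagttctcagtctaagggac
Zfp362: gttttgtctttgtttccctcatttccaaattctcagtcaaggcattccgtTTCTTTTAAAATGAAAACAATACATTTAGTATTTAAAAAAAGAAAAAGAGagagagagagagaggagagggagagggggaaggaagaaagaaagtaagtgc
Zfp639: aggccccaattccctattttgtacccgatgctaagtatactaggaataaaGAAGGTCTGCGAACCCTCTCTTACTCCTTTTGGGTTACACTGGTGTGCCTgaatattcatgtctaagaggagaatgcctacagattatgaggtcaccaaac
The Zfp11 and Zfp639 peaks held no soft-masked base, whereas 73.3% of the Zfp362 peak was soft-masked, that is, marked as repeat in the assembly.

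The first question was whether ZFP genes lie in regions with more EHMT2 peaks. Clustered intervals held 4.49 summits per Mb (95% Poisson interval 3.46 to 5.74) and single intervals 3.87 (3.16 to 4.71), against 4.61 (4.53 to 4.70) over the rest of the genome. The ratio of clustered to single intervals was 1.16 (exact conditional 95% interval 0.835 to 1.60), so a difference was not detectable at this number of peaks. Clustered intervals stood at 0.974 times the rest of the genome (0.750 to 1.24) and single intervals at 0.840 times (0.683 to 1.02). These intervals cover counting error only. They treat peaks as independent, which neighbouring peaks are not, and include no replicate error. The ratio of single intervals to the rest depended on the settings: of 18 alternatives, 8 put its interval below 1, and it was 0.632 (0.409 to 0.934) inside the gene records alone, and 0.746 (0.589 to 0.932) at a q-value of 0.01 or lower. Per soft-masked base it was 0.922 (0.751 to 1.12), and for summits whose 50-mer occurs once in the assembly it lay above 1, at 1.85 (1.33 to 2.51).

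Around olfactory and vomeronasal receptor genes, another tandemly repeated family, the density was 5.95 summits per Mb (5.32 to 6.64). Clustered ZFP intervals were at 0.755 times this density (0.568 to 0.990). The soft-masked share of bases was 39.5% in clustered ZFP intervals, 32.3% in single ZFP intervals and 49.4% in receptor intervals. Counted per soft-masked Mb, the ratio of clustered ZFP to receptor intervals was 0.951 and its interval included 1 (0.716 to 1.25). Around all other protein-coding genes the density was 4.03 summits per Mb (3.93 to 4.13), and the ratio of all ZFP intervals to it was 1.02 (0.866 to 1.19).

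Summits were then split by the copy number of their sequence. A summit was called unique when its 50-mer occurred once in the assembly and repeated otherwise. Repeated summits stood at 2.60 per Mb in all ZFP intervals (2.13 to 3.15) and at 3.74 per Mb in the rest of the genome (3.67 to 3.82), a ratio of 0.695 (0.568 to 0.843). Against other coding genes the ratio of repeated summits was 0.884 and its interval included 1 (0.721 to 1.07). Unique summits stood at 1.49 per Mb (1.136 to 1.92) against 0.869 (0.834 to 0.905), a ratio of 1.71 (1.30 to 2.21). Around other coding genes unique summits were also more frequent than in the rest, at 1.08 per Mb (1.03 to 1.13), and the ratio of all ZFP intervals to these was 1.38 (1.05 to 1.79). This last ratio was 1.16 (0.802 to 1.62) for peaks with a q-value up to 0.01 and 1.31 (0.802 to 2.01) for those up to 0.001, where 35 and 21 unique ZFP summits remained, and its interval then included 1. For clustered intervals alone both ratios to the rest included 1, at 0.862 for repeated (0.631 to 1.15) and 1.45 for unique summits (0.861 to 2.304). For single intervals both excluded 1, at 0.604 (0.460 to 0.780) and 1.85 (1.33 to 2.51). The ratio of clustered to single intervals included 1 for repeated (1.43, 0.949 to 2.13) and for unique summits (0.785, 0.425 to 1.39), so a difference between the classes was not detectable. Unique summits were the weaker ones: 46 of 60 around ZFP genes rested on 6 or fewer fragments, as did 27 of 105 repeated ones. The same held in the rest of the genome, with 1739 of 2333 unique and 2666 of 10056 repeated summits, so it is no trait of ZFP peaks.

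**Figure D1:**
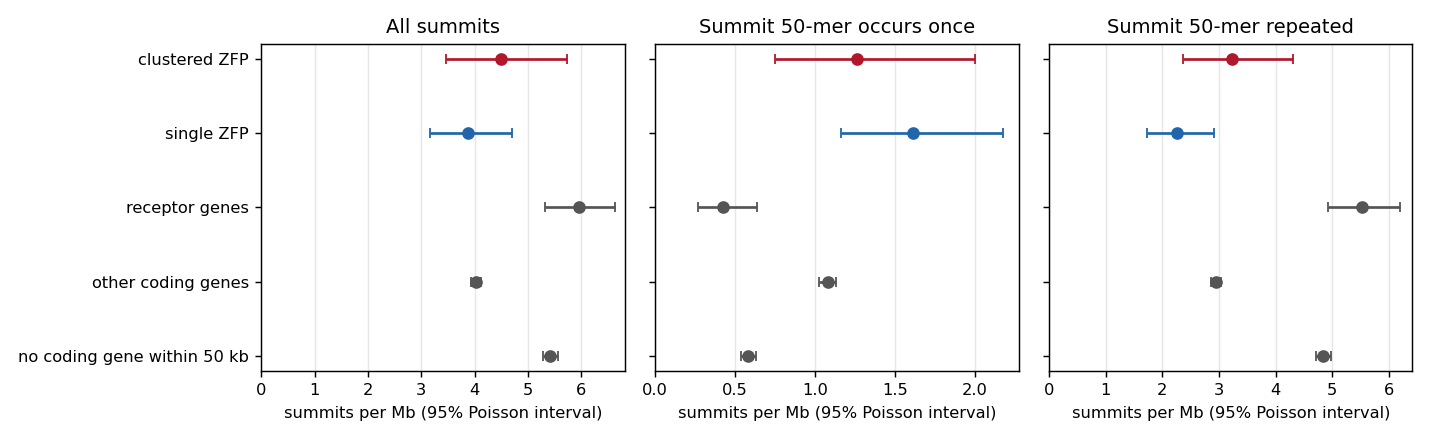
Summits per Mb (x axes) in clustered and single ZFP intervals, receptor gene intervals, intervals of other coding genes and sequence with no coding gene within 50 kb, for all summits, for summits whose 50-mer occurs once and for repeated ones. Points are densities and bars 95% Poisson intervals; in the middle panel single ZFP intervals lie highest at 1.61 per Mb, and in the right panel lower than every other set at 2.263 per Mb.

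Counted by gene, 181 of 416 ZFP genes (43.5%, 95% Wilson interval 38.8 to 48.3%) had a summit in their extended interval. The share over all 21938 protein-coding genes was 37.6%. It was 48.1% for clustered genes (116 of 241, 41.9 to 54.4%) and 37.1% for single genes (65 of 175, 30.3 to 44.5%). Olfactory and vomeronasal receptor genes, also tandemly repeated, stood close to the clustered value at 48.0% (702 of 1464, 45.4 to 50.5%). Genes of a cluster share peaks: the 116 clustered genes were reached by 64 summits, and these shares do not count independent events.

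Among the clusters, the most summits lay in the 23 genes from Zfp712 to Zfp273 on chromosome 13 (chr13:66988596-67877002, flanks included). This interval held 6 summits in 0.888 Mb, or 6.75 per Mb (2.48 to 14.7). Of these, 2 lay at 852.317 and 852.872 kb from its start. Its lead over the next cluster rests on this pair, which counts as 1 when summits under 10 kb apart are merged. The strongest of the 6, in an intron of Zfp953, had a fold enrichment of 6.84 over the local background with 9 fragments at the summit. Its 50-mer was unique. Another lay in an intron of Zfp493 at 6.03-fold with 8 fragments, and 5 of the 6 summits were repeated. No long reading frame lay in this interval, and 10 of its 23 genes had a summit within 50 kb.

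The 15 genes from Zfp677 to Zfp994 on chromosome 17 (chr17:21333748-22275616) followed with 5 summits in 0.942 Mb, or 5.31 per Mb (1.72 to 12.4). Here lay the Zfp52 intron peak at 11.4-fold with 53 fragments, and a narrower peak 5336 bp upstream of Zfp994 at 10.5-fold with 18 fragments, whose 50-mer had 4 copies. The next interval on chromosome 17, Zfp944 to Zfp946, held 3 summits for 3 genes, none above 5.84-fold. Of these, 2 lay under 10 kb apart, 33521 and 34020 bp downstream of the TSS of Zfp758. The Zfp955a to Zfp101 interval, also on chromosome 17, held 3 summits for 4 genes, among them the Zfp955b peak at 13.1-fold with 64 fragments.

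Clusters with 3 summits were also found on chromosome 7, from Zfp180 to Zfp94 (10 genes) and from Zfp607b to Zfp850 (8 genes), and on chromosome 9, from Zfp560 to Zfp846 (5 genes). Among intervals of at least 0.3 Mb these had the highest densities, at 8.96 per Mb for Zfp180 to Zfp94 (1.85 to 26.2), 8.33 for Zfp560 to Zfp846 (1.72 to 24.3) and 7.06 for Zfp607b to Zfp850 (1.46 to 20.6). All 3 intervals include the density of the rest of the genome. In Zfp180 to Zfp94, 2 of the 3 summits lay 8759 and 10035 bp upstream of Zfp114, and these count as 1 when summits under 10 kb apart are merged. Zfp251 to Zfp647 on chromosome 15 held 2 unique summits for 3 genes.

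A cluster with as many genes as Zfp677 to Zfp994, in a shorter interval (0.501 against 0.942 Mb), held none. The 15 genes from Zfp84 to Zfp146 on chromosome 7, which include the KRAB zinc-finger gene Zfp568, had 0 summits in 0.501 Mb. A count of 0 allows up to 5.99 summits per Mb when 3 counts are taken as the limit, above the 4.61 of the rest of the genome. The 4 genes from Zfp954 to Zfp772 and the 4 from Zfp141 to Zfp975, both on chromosome 7, were also without a summit, and their limits were 15.4 and 9.39 per Mb. In all, 37 of 55 clusters held at least 1 summit, 22 of them exactly 1, and the 5 with the most held 31.2% of the clustered summits.

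**Figure D2:**
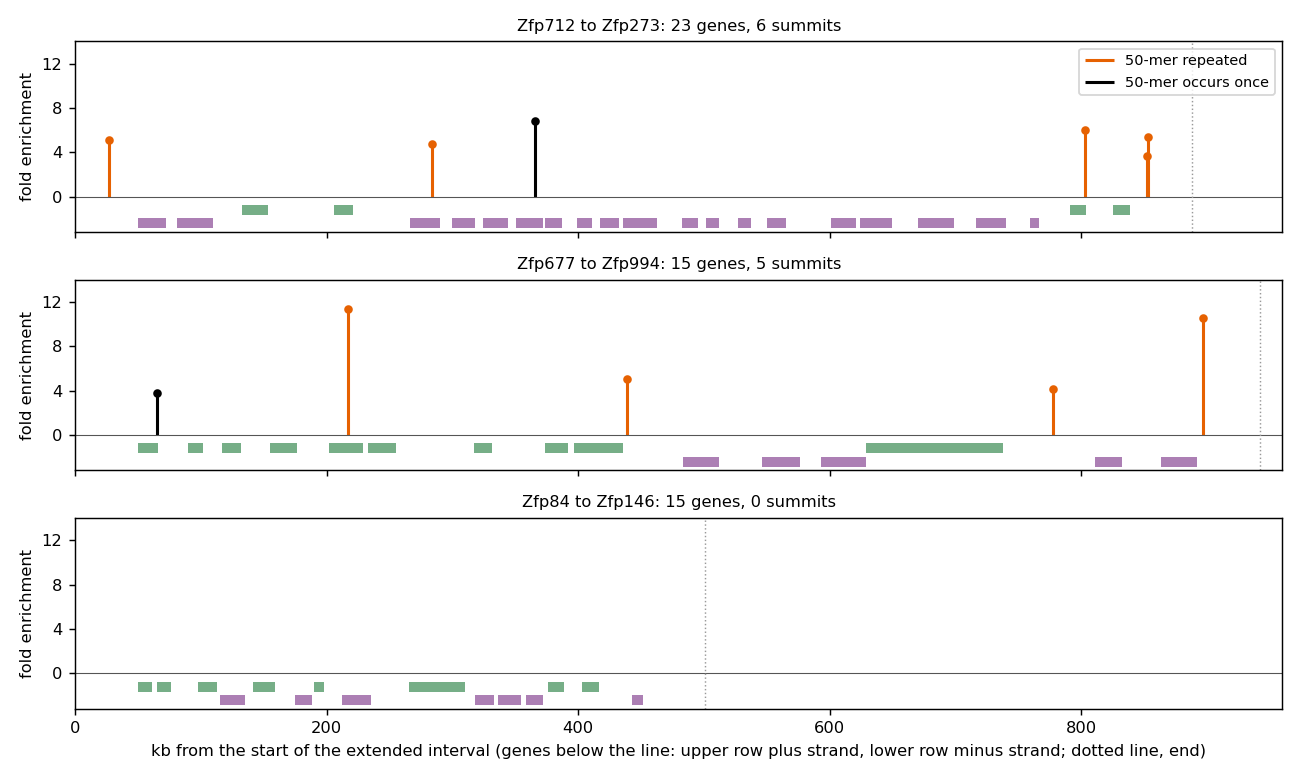
Positions of summits and ZFP genes in 3 clusters, in kb from the start of the extended interval (x axis), with fold enrichment as the height of each stem (y axis) and genes drawn as boxes below, the upper row on the plus and the lower row on the minus strand. The Zfp712 to Zfp273 and Zfp677 to Zfp994 clusters held 6 and 5 summits, mostly repeated (orange), and Zfp84 to Zfp146 held 0.

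Among single genes, Zfp804b on chromosome 5 led with 5 summits in an interval of 0.676 Mb, all repeated. Of these, 4 lay in its introns, and the strongest at 9.90-fold with 33 fragments lay 26846 bp outside the record. Zfp804b is a very long gene whose product held 1 match to the C2H2 finger letters. Zfp11, a gene with 21 finger matches, had 4 summits in 0.116 Mb. They were the promoter summit at 8.28-fold with 11 fragments, 214 bp upstream of the transcription start site (TSS), and peaks at 5.23-fold, 4.73-fold and 3.79-fold. The 4.73-fold and 3.79-fold peaks lay inside the neighbouring genes Sept14 and Mrps17. Zfp697 had 4 summits, of which the intronic one at 7.57-fold with 18 fragments was repeated and the others, at 3.45-fold to 3.52-fold with 4 fragments each, were unique.

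Single genes with 3 summits differed in the kind of sequence. Near Zfp330, whose product held 0 finger matches, all 3 summits (5.38-fold to 7.31-fold) were repeated and lay upstream of a long reading frame. Near Zfp951 the 3 were repeated as well, from 5.11-fold to the 16.9-fold of the strongest ZFP peak, which rested on 56 fragments. Around Zfp652 all 3 were unique, at 6.97-fold (inside the neighbouring gene B4galnt2), 5.11-fold and 3.59-fold. Around Zfp592, 2 of 3 were unique, with 5.10-fold as the highest value, inside the neighbouring gene Alpk3. Zfp354a had 1 unique summit 5692 bp upstream of its TSS, at 4.36-fold with 5 fragments, and 2 repeated ones. Of 175 single genes, 110 had 0 summits.

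**Figure D3:**
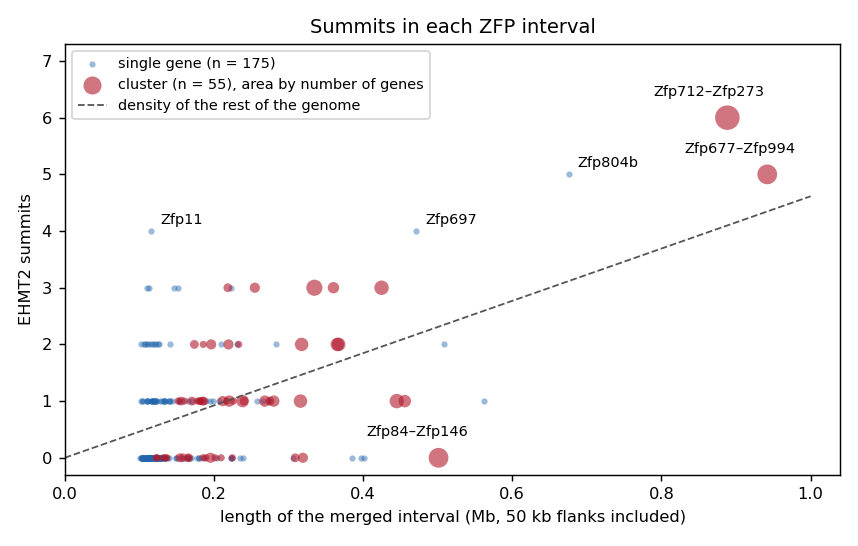
Number of EHMT2 summits (y axis) against the length in Mb (x axis) of each merged ZFP interval, blue for single genes and red for clusters with the area scaled to the number of genes; the dashed line is the density over the rest of the genome. The Zfp712 to Zfp273 cluster lies highest at 6 summits, and Zfp84 to Zfp146 lies at 0.

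Peaks around ZFP genes were weak and narrow compared with the rest of the list. Their median fold enrichment was 4.75 in clustered and 4.95 in single intervals (quartiles 4.13 to 5.96 and 4.07 to 5.59), against 5.23 (4.38 to 7.22) elsewhere. For repeated summits the median was 5.06 in all ZFP intervals and 5.39 around other coding genes, and for unique summits 4.23 and 4.43. The median number of fragments at the summit was 7 in both classes and 8 elsewhere, and 73 of 165 (44.2%, 36.9 to 51.9%) rested on 6 or fewer fragments, as did 35.6% elsewhere (34.7 to 36.4%). The median width was 170 bp for clustered and 171 bp for single peaks, against 215 bp. GC within 100 bp of the summit did not separate them, with medians of 50.2% and 50.7% against 50.7%.

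Soft-masked bases made up 77.3% of clustered and 72.8% of single ZFP peaks, against 89.7% of all other peak bases. The summit 50-mer was repeated in 71.9% of clustered (59.9 to 81.4%) and 58.4% of single peaks (48.7 to 67.5%). Over all ZFP peaks the share was 63.6% (56.1 to 70.6%), against 81.2% elsewhere (80.5 to 81.8%). Around other coding genes 4637 summits were repeated and 1696 unique, and with no coding gene within 50 kb 5119 and 614. Part of the gap to elsewhere is thus shared with other gene neighbourhoods. Summits with over 1000 copies were 17.6% of ZFP peaks (12.5 to 24.1%) and 32.2% of the others (31.4 to 33.0%). The authors' aligner wrote each read with several equally good sites once, at a randomly chosen site, so for repeated summits the copy that was bound cannot be told from its equals.

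**Figure D4:**
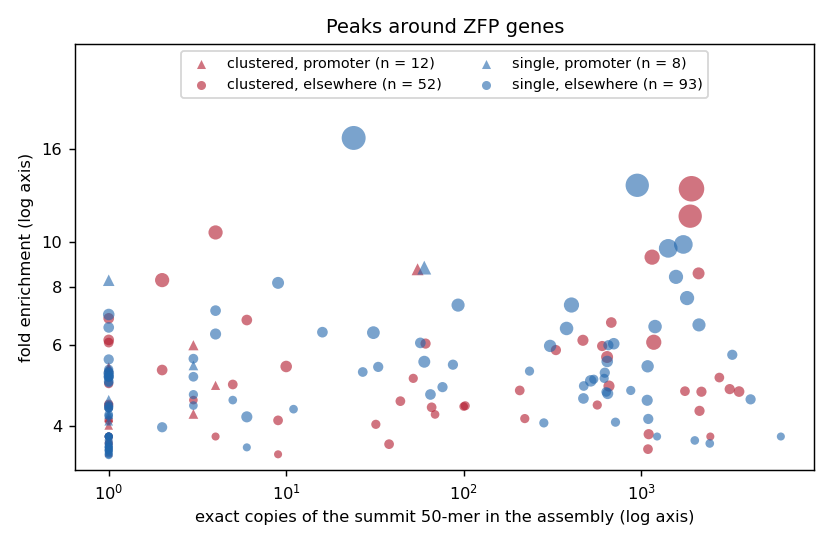
Fold enrichment (y axis, log) of each of the 165 ZFP peaks against the number of exact copies of its summit 50-mer in the assembly (x axis, log), red for clustered and blue for single genes, triangles for summits in ZFP promoters, with the area growing with the fragments at the summit. Peaks above 10-fold lie at 4 copies or more, and the unique summits reach 8.28-fold at Zfp11.

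Of the 165 windows, 51 matched at least 1 other over 151 bp at 80% identity or more, in 16 groups, and 114 matched none. The largest group joined 8 windows, 7 of them single, with a median of 1693.5 copies; a second joined 6, and the strongest group joined the 5 top peaks with a median fold of 13.1. Windows with a match had a median fold of 5.42 and 10 fragments, and those without had 4.48 and 6. Open frames spanning 1000 codons or more, none of it annotated as coding, stood in for long retroelements, since the assembly names no elements. A summit lay within 3 kb upstream of 7 of 20 such frames in clustered intervals (35.0%, 18.1 to 56.7%), 14 of 26 in single intervals (53.8%, 35.5 to 71.2%) and 2935 of 5239 elsewhere (56.0%, 54.7 to 57.4%). The intervals of both ZFP classes include the value elsewhere. The 20 frames in clustered and 26 in single intervals gave 1.40 and 0.997 frames per Mb, against 1.95 per Mb in the rest of the genome. Around other coding genes frames stood at 1.48 per Mb, close to the clustered value. No interval was computed for these frame densities, and few frames lay in ZFP intervals.

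Of the ZFP summits, 20 of 64 in clustered and 25 of 101 in single intervals lay within a ZFP gene record. With summits in ZFP promoters (12 clustered and 8 single) set apart, introns of ZFP genes held 9 and 18, exons outside coding sequence 2 and 3, and sequence outside the records 41 and 71. Of those outside the records, 9 clustered and 17 single summits lay inside another protein-coding gene. A coding exon of a ZFP gene held 1, in Zfp90, and this unique summit rested on 4 fragments at 3.59-fold. The 301 bp around it held 3 matches to the C2H2 finger letters, counted over all reading frames. Annotated coding exons of any gene held 5 of the 165 ZFP summits and 74 of 12554 over all peaks. The median distance to the TSS of the nearest ZFP gene was 14666.5 bp for clustered and 41661 bp for single genes, in intervals that differ in how closely genes are spaced.

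Promoters, from 2.5 kb upstream to 0.5 kb downstream of any annotated TSS, held a summit in 21 of 416 ZFP genes (5.05%, 3.33 to 7.59%), while the share over all protein-coding genes was 2.41%. These were 13 clustered and 8 single genes reached by 20 summits, since Zfp934 and Zfp935 shared 1. Per Mb of promoter, ZFP genes held 8.40 summits (5.13 to 13.0) and other protein-coding genes 3.51 (3.21 to 3.84), a ratio of 2.39 (1.45 to 3.73). The ratio was 2.91 (1.49 to 5.13) for clustered and 1.89 (0.810 to 3.75) for single genes. At a q-value of 0.01 or lower these were 2.44 (1.05 to 4.85) and 2.38 (1.02 to 4.73). At 0.001 they were 2.39 (0.770 to 5.66) and 2.33 (0.750 to 5.51). With only the TSS of the gene record they were 2.10 (0.836 to 4.38) and 2.02 (0.652 to 4.78). Within 1 kb of a TSS they were 3.56 (1.76 to 6.44) and 1.56 (0.504 to 3.67). The intervals of both classes overlapped in each setting. For all ZFP genes, 12 summits gave 2.07 (1.06 to 3.66) with only the TSS of each gene record. At a q-value of 0.001 or lower, 10 summits gave 2.36 (1.12 to 4.42). The number of annotated TSS records per gene was 4.35 for ZFP genes and 4.64 for others.

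The promoter summits were mostly unique and weak. Of the 20, 14 were unique (70.0%, 48.1 to 85.5%), as were 303 of 481 at promoters of other coding genes (63.0%, 58.6 to 67.2%) and 46 of 145 elsewhere around ZFP genes (31.7%, 24.7 to 39.7%). A peak without any soft-masked base was seen for 13 of 20 (65.0%, 43.3 to 81.9%), against 179 of 481 at other promoters (37.2%, 33.0 to 41.6%). Fragments at the summit ranged from 4 to 17 with a median of 6, the same median as at other promoters, and the median fold was 4.72 against 4.67. With no control library, the openness of promoter chromatin and binding of EHMT2 cannot be told apart in these counts.

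The 2 strongest promoter summits were repeated, at Zfp958 on chromosome 8 (710 bp upstream of the TSS, 8.82-fold, 17 fragments, 60 copies) and at Zfp442 on chromosome 2 (1453 bp upstream, 8.74-fold, 12 fragments, 55 copies). Zfp11 came next with its unique summit. Zfp61 on chromosome 7 had a summit 813 bp upstream at 5.98-fold, and Zfp236 had one 1721 bp upstream at 5.40-fold, each with 3 copies and no soft-masked base. Distances of promoter summits are to the nearest annotated TSS of any transcript. Counted from the TSS of the gene record, the summits of Zfp442, Zfp61 and Zfp236 lay inside the gene, 38696, 4438 and 73412 bp downstream.

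Unique summits within 100 bp of a TSS included those of Zfp868 (76 bp downstream, 5.36-fold), Zfp37 (25 bp, 5.19-fold) and Zfp354b (100 bp, 5.30-fold), with 20, 25 and 13 CpG dinucleotides in 301 bp. Their fragments numbered 7, 7 and 6. The summit at Zfp445, which encodes a KRAB protein that acts at imprinted loci, lay 2 bp downstream of an annotated TSS at 4.89-fold with 6 fragments, in a wholly soft-masked peak with 4 copies. Zfp362 and Zfp639 had summits 1087 and 1241 bp upstream of the nearest annotated TSS at 5.13-fold and 4.56-fold. Counted from the TSS of the gene record, the summits of Zfp37, Zfp445 and Zfp362 lay inside the gene, 22642, 10628 and 10070 bp downstream. Zfp110 completed the 12 strongest, with a unique summit 12 bp downstream at 4.42-fold with 5 fragments. The weaker summit of Zfp770 was also unique and close to the TSS, 67 bp upstream at 4.09-fold with 5 fragments.

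**Figure D5:**
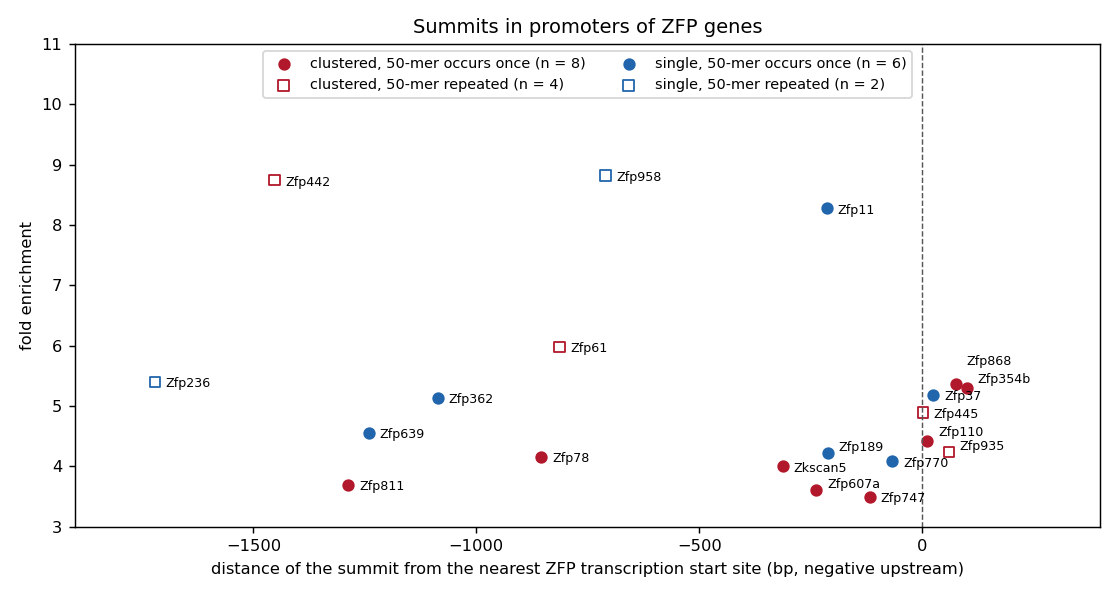
Fold enrichment (y axis) of the 20 summits in ZFP promoters against the distance in bp from the nearest ZFP transcription start site (x axis, negative upstream), red for clustered and blue for single genes, filled where the summit 50-mer occurs once and open where it is repeated. The values run from 3.49 at Zfp747 to 8.82 at Zfp958, and 14 of 20 points are filled.

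Named ZFP genes with known roles were looked up whatever their values. Of 6 linked to pluripotency, 2 had a summit within 50 kb, where the share over all protein-coding genes was 37.6%. Zfp42 (Rex1), a marker of naive pluripotency, had 2, the nearer 9666 bp upstream of its TSS at 4.18-fold with 10 fragments. Zfp217 had 1, 12259 bp upstream at 4.99-fold. Zfp281, Zfp296, Zscan10 and Zfp462 had 0. Zfp462, whose product is a known recruiter of EHMT proteins in mESCs, had its nearest summit 63382 bp upstream at 4.86-fold, outside the 50 kb limit. Of the other partners, Zfp518a had 1 summit, 62511 bp downstream of its TSS at 3.66-fold, inside the neighbouring gene Blnk, while Zfp518b and Zfp644 had 0.

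Of 8 KRAB zinc-finger genes known to act on retroelements or imprints, 5 had a summit, against 37.6% of all protein-coding and 48.1% of clustered ZFP genes. With 8 genes chosen for their known roles, nothing is read from this count. Zfp809, which restrains proviruses, had 2, one in an intron 7621 bp downstream of its TSS at 4.40-fold with 5 fragments and 100 copies. Zfp819 had an intronic summit 3714 bp downstream at 4.43-fold with 566 copies. Zfp932 and Zfp92 had their single summits 46670 bp upstream and 50628 bp downstream of the TSS, at 4.23-fold and 4.02-fold. Zfp445 was described above, and Zfp57, Zfp568 and Zfp708 had 0. The RNA-binding CCCH genes Zfp36, Zfp36l1 and Zfp36l2, which share the name but not the C2H2 fold, had 0 as well. Zfp36l3, a gene of the same name that was not on this list, had 2 repeated summits, at 6.02-fold and 3.71-fold.

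The name rule gathered proteins of several kinds. In translated coding sequences, 387 of 416 held at least 2 matches to the C2H2 finger letters, with a median of 11 fingers for clustered and 8 for single genes. The letters of the KRAB A box were found in 51.9% of clustered and 10.3% of single genes. These letters are strict, and known KRAB proteins such as Zfp57, Zfp445 and Zfp568 were without a match. A summit within 50 kb was found for 75 of 143 genes with the KRAB letters (52.4%, 44.3 to 60.5%) and 106 of 273 without (38.8%, 33.2 to 44.7%). Of those with the letters 125 were clustered genes, which share peaks. Within clustered genes the shares were 53.6% with the letters (67 of 125, 44.9 to 62.1%) and 42.2% without (49 of 116, 33.6 to 51.3%). Within single genes they were 44.4% (8 of 18, 24.6 to 66.3%) and 36.3% (57 of 157, 29.2 to 44.1%). The intervals with and without the letters overlapped in each class. When all 164 protein-coding genes with 2 or more fingers and the KRAB letters were taken, whatever their name, clustered intervals held 5.50 summits per Mb, 1.19 times the rest of the genome (0.864 to 1.61), and single intervals 4.22.

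At the limit of the rule, the last summits inside lay 48339, 49144 and 49688 bp from a ZFP gene record, at 4.19-fold, 4.69-fold and 5.25-fold. The first outside lay at 50428, 50756 and 51453 bp, at 7.33-fold, 5.13-fold and 3.98-fold. The widest gap still called clustered was 99680 bp, between Zfp932 and Zfp605, and the narrowest called single was 104087 bp, between Zfp715 and Zfp936.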

How the data were processed

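Anti-HA ChIP-exo of EHMT2-dTAG mESCs was analysed from 1 pooled peak list of 2 replicates. Per the labels and the study's methods, the authors aligned reads to mm10 with STAR 2.7.10, writing 1 random best site for reads with several, removed duplicates with Picard 2.26.0 and high-signal regions with SAMtools 1.14, converted with bedtools 2.30.0, and called peaks with MACS2 2.2.6, for which no control library is named, at a q-value below 0.05. deepTools 3.5.1 is also named. The deposited values are the fold enrichment at the summit, the −log10 of the p-value and q-value, and a score. The fold is a ratio of the fragments to the local background with 1 added to each, which limits the fold of peaks with few fragments. The deposited file gives the score as the whole part of 10 times that −log10 q for all but 1 of 12556 peaks. Positions are in bp.

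Fragments at a summit were recovered from the deposited fold and −log10 p (tolerance 0.0001), with 1 solution for 99.96% of peaks. Genes were GENCODE vM21 and sequence GRCm38.p6. Intervals were exact Poisson, exact conditional or Wilson at 95%. No p-value was computed, because replicate error cannot be had from a pooled list. Finger letters (C, 2 to 4 residues, C, 12 residues, H, 3 to 5 residues, H) and KRAB A box letters (F, any, D, V, A, any 2, F) were counted in translated GENCODE coding sequences, in place of the RefSeq proteins first planned. Copies are exact matches of the summit 50-mer on both strands of the assembled chromosomes. Window identity came from edlib 1.3.9.post1. Python 3.11.15, numpy 2.4.6, pandas 2.3.3 and scipy 1.17.1 were used. Interval counting was tested on simulated data.

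Named items were the 8 clusters with the most summits, the 3 densest of at least 0.3 Mb, the 3 with the most genes and 0 summits, the 8 single genes with the most summits, the 5 strongest peaks of each class, the 12 strongest promoter summits and coding exon summits, and lists of genes with known roles. The members and lists were chosen with earlier results of these data known. Whether the list is the one behind the peak number in the study was not established. The 2 peaks outside chromosomes 1 to 19, X and Y were left out.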

Additional observations from a re-analysis of the deposited data

How the results depend on the processing

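No paired analysis was possible because both replicates were merged into 1 list, and for the same reason no replicate was left out. Of 150 recomputed values, 103 kept their direction and their side of the threshold or stayed within the interval of the reported value.

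The clustered to single ratio of summits per Mb fell below 1 per soft-masked base (0.952) and for unique summits (0.785). The ratio of clustered intervals to the rest, reported below 1, rose above it with 20 kb flanks (1.02), clustering within 50 kb (1.00) or 200 kb (1.02), summits under 10 kb apart counted as 1 (1.03), unique summits (1.45) and the KRAB list (1.19). All these intervals included 1. The ratio of single intervals to the rest excluded 1 with no flank (0.632), 20 kb (0.738) or 100 kb (0.793) flanks, clustering within 200 kb (0.786), a q-value of 0.01 (0.746) or 0.001 (0.762) or lower, bases without N (0.818) and chromosome Y left out (0.812), and was 1.85 for unique summits. For unique summits at a q-value of 0.01 or lower it was 1.54 and its interval included 1. Against other coding genes, unique summits of single intervals were at 1.49 times the density, and at 1.23 and 1.44 under the stricter thresholds, where the interval included 1. For all ZFP intervals these values were 1.16 and 1.31, and their intervals included 1 as well. The cause was not tested.

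With no flank, 20 kb, 100 kb, a q-value of 0.01 and of 0.001 or lower, the share of genes with a summit was 8.71, 26.6, 64.7, 40.7 and 27.8% for clustered and 10.9, 24.6, 52.0, 29.7 and 25.7% for single genes. Without flanks, soft-masked bases of clustered peaks were 61.0%, and repeated summits 55.0% of clustered and 68.0% of single peaks. Repeated summits were 82.4% of clustered and 75.0% of single peaks at 0.001 (69.2% of single peaks at 0.01), and 50 and 45.5% with 100-mers. The median fold was 5.89 (clustered) and 5.41 (single) at 0.001 and 5.20 (single) at 0.01. With frames of at least 500 codons, 15.2 and 17.2% had a summit upstream. The share of ZFP genes with a promoter summit was 2.40% at 0.001 and 2.88% with the gene record's TSS, where all protein-coding genes stood at 1.20 and 1.50%. The KRAB list, chromosome Y, promoter and unique-summit settings were chosen after seeing the data. Few fragments per summit limit the precision throughout.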
